A study of Mus musculus with 8 samples.

Results

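Hearts of E10.5 mouse embryos, at midgestation, were compared for 41 genes of glycolysis and of the response to low oxygen. The genes were taken by symbol and matched to the Entrez gene identifiers of the count table, where all 41 were found among 27179 genes. They fall into 3 role groups: 22 genes of glucose uptake, glycolysis and pyruvate fate, 7 regulators of the hypoxia-inducible factors (HIF), and 12 other targets of HIF. MOZ KO, with 3 hearts, had lost both alleles of Kat6a (Kat6a-/-). MOZ WT, with 5 hearts, was wild type (Kat6a+/+). Kat6a, also named Moz, encodes one of the MYST family of histone acetyltransferases, and the labels name no drug or strain. They also do not say how the allele was made, whether the embryos came from separate litters, or their sex. The p-values below set the difference between the groups against the spread between hearts. They take each heart as an independent replicate, which the labels do not settle.

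Glycolysis splits glucose into pyruvate in the cytosol, and lactate dehydrogenase turns pyruvate into lactate where it is not passed on to the mitochondria. The heart at midgestation is known to draw much of its energy from glycolysis. HIF is a dimer of an oxygen-sensitive alpha subunit (Hif1a or Epas1) and Arnt. When oxygen is present, prolyl hydroxylases (Egln1, Egln2 and Egln3) mark the alpha subunit for the ubiquitin ligase that holds the Vhl protein, and it is degraded. When oxygen is low the alpha subunit persists, and the dimer binds short DNA cores at genes of glucose uptake, glycolysis, angiogenesis, mitophagy and collagen synthesis. Since much of this control acts on the protein, the RNA of Hif1a does not measure HIF activity.

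Each heart gave 1 library, with 19911803 to 34539787 counts. No 2 libraries agreed within counting error. Kat6a itself had 141, 133 and 137 CPM in MOZ KO replicates 1 to 3, against 138, 144, 143, 141 and 156 CPM in MOZ WT replicates 1 to 5, where CPM corrects each count for library size. The groups overlapped, and the log2 fold change was -0.08 ± 0.05 (SE; edgeR, adjusted p = 0.529). The gene count thus does not check the genotype labels, and directions below are those between hearts labelled MOZ KO and hearts labelled MOZ WT. RNA of Xist, which is made in female cells, stood at 306 and 300 CPM in MOZ WT replicates 4 and 5 while the remaining 6 hearts had 0.372 CPM or less. The sample descriptions number all MOZ KO hearts ahead of all MOZ WT hearts, and any effect of such an order cannot be told apart from genotype.

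Within each group the members spanned about 3 orders of magnitude in level, given here in TPM, which scale the counts by gene length as well as by library. Ldha, the lactate dehydrogenase subunit of glycolytic tissue, was the highest as counted, at 2934 ± 62.4 TPM in MOZ KO and 2580 ± 254 TPM in MOZ WT (SD, n = 3 and n = 5). Near-identical copies of some members, given below, limit this ranking. Aldoa (aldolase) followed at 2208 ± 68.3 TPM in MOZ KO and 1978 ± 136 TPM in MOZ WT, Tpi1 (triosephosphate isomerase) at 1826 ± 54.0 TPM in MOZ KO and 1613 ± 120 TPM in MOZ WT, and Pkm (pyruvate kinase) at 1715 ± 31.4 TPM in MOZ KO and 1546 ± 73.5 TPM in MOZ WT. Slc2a1, the main glucose transporter of embryonic tissue, reached 882 ± 48.5 TPM in MOZ KO and 850 ± 86.6 TPM in MOZ WT. In MOZ WT hearts Tpi1 and Pkm did not differ beyond their spread. Among the HIF regulators Hif1a was the highest, at 243 ± 13.8 TPM in MOZ KO and 265 ± 24.5 TPM in MOZ WT, and Egln3 the lowest, at 13.4 ± 2.17 TPM in MOZ KO and 9.60 ± 1.28 TPM in MOZ WT. Among the other HIF targets Bnip3, a receptor of mitophagy, led with 170 ± 6.57 TPM in MOZ KO and 129 ± 8.60 TPM in MOZ WT, and the carbonic anhydrase gene Car9 was lowest with 3.53 ± 1.09 TPM in MOZ KO and 3.59 ± 0.702 TPM in MOZ WT.

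**Figure D1:**
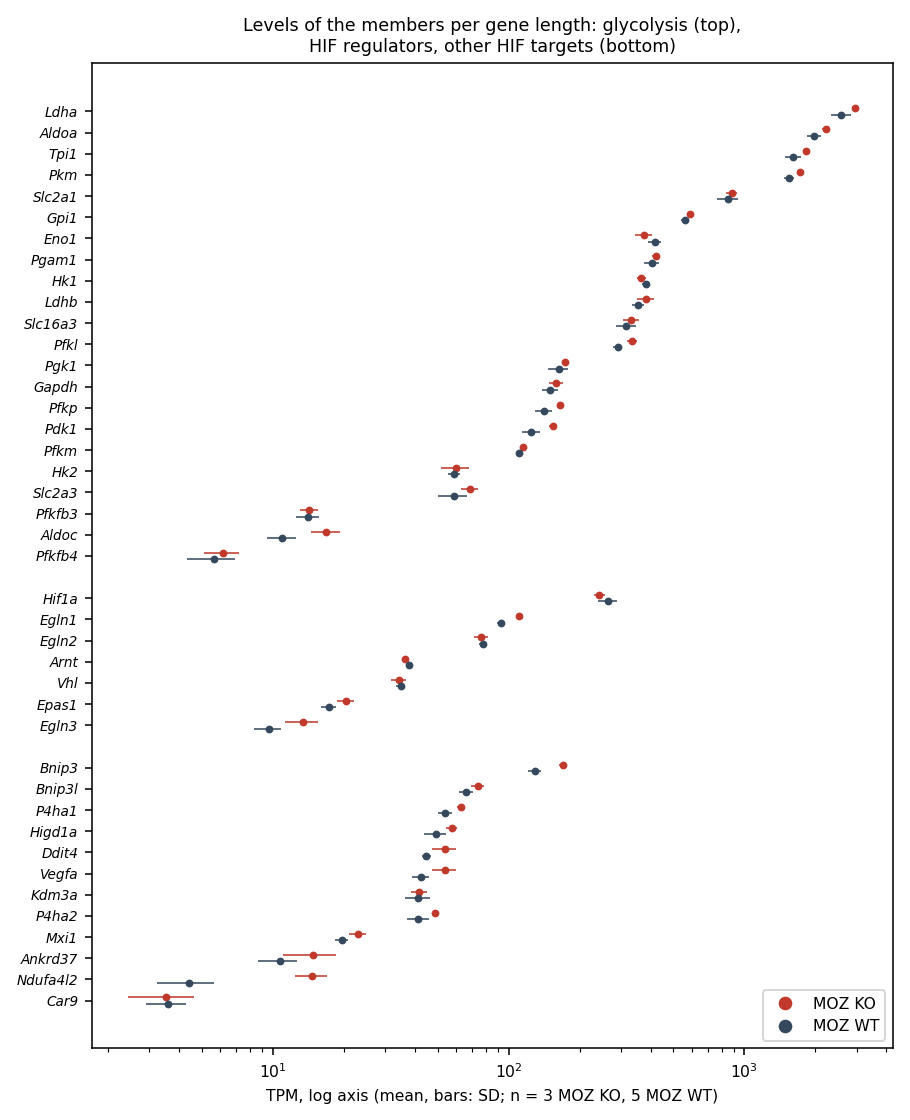
Level of each of the 41 members in TPM on a log axis, as the mean and SD of 3 MOZ KO hearts (red, upper point) and 5 MOZ WT hearts (dark, lower point), by role group and ordered by the MOZ WT level. Ldha stands at the top of the glycolytic group, at 2934 ± 62.4 TPM in MOZ KO and 2580 ± 254 TPM in MOZ WT, and Ndufa4l2 is the member whose points lie farthest apart.

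In MOZ KO hearts, 10 of the 41 members rose, 0 fell and 31 did not pass (edgeR's quasi-likelihood test, adjusted over all 15086 genes tested by Benjamini-Hochberg, with a threshold of 0.05). Over all genes tested, 1.44% were called higher and 1.23% were called lower. The rises were small for 9 of the 10, between 16.4% for Pfkl and 56.7% for Aldoc, and 3.36-fold for Ndufa4l2. The 10 were the glycolytic members Pfkl, Pfkp, Aldoc and Pdk1, the HIF regulators Egln1 and Egln3, and the HIF targets Bnip3, Ndufa4l2, P4ha1 and Vegfa. The log2 fold change was above 0 in 34 of the 41 members (82.9%), against 49.9% of all genes tested, and its median was 0.16, against 0.00 for all genes tested. In 15 members every MOZ KO value lay above every MOZ WT value, and in 0 every one lay below. Over all genes tested, 4.77% lay above and 4.81% below in this way. All 41 members passed the filter on low counts. RNA of a whole heart does not tell a change in RNA per cell from a change in the share of the cells that make it.

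The count of 10 depended on single hearts. It was 6 without MOZ KO replicate 1, 6 without MOZ KO replicate 2, and 16 without MOZ WT replicate 1. Pdk1, Egln1, Bnip3 and Ndufa4l2 passed in each of the 8 fits that left out a heart, and the other 6 called members lost their call in at least 1. Without the 2 hearts that had Xist RNA, 7 members rose and 1, Hif1a, fell.

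**Figure D2:**
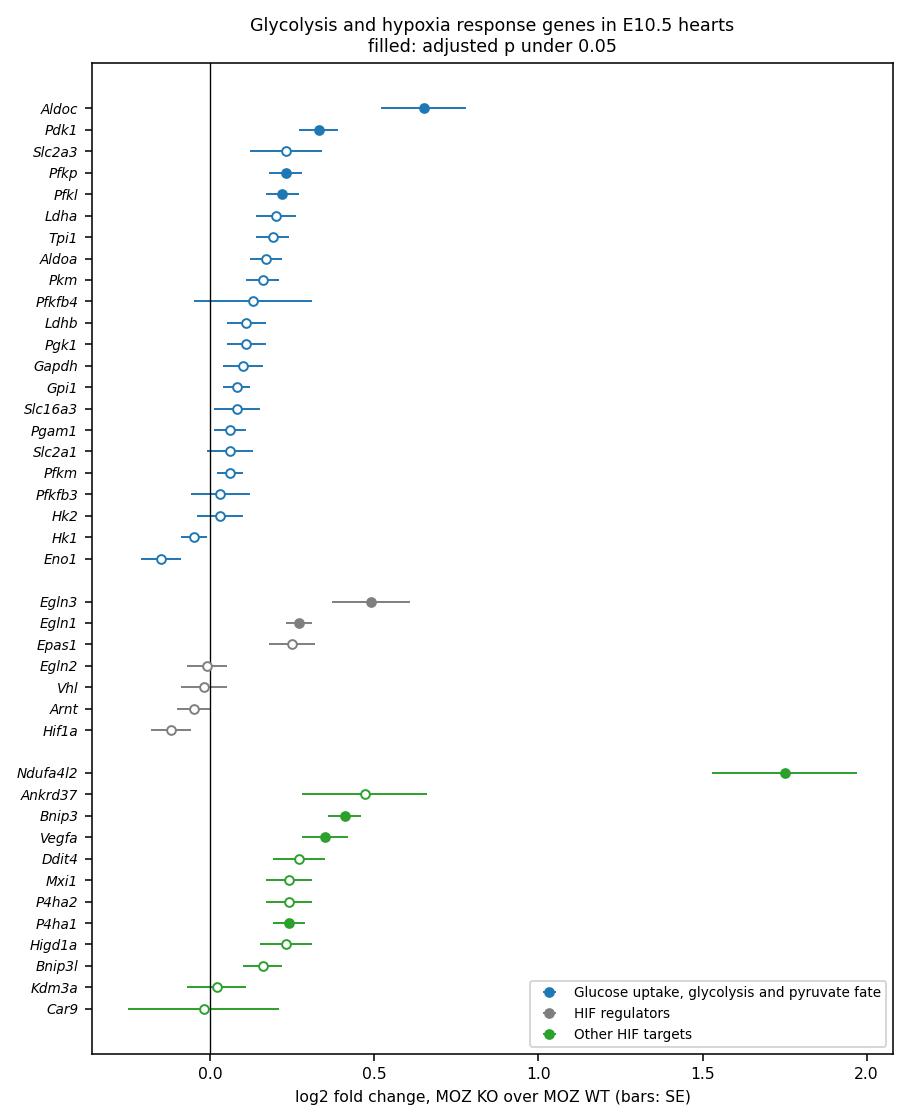
Log2 fold change (MOZ KO over MOZ WT) of each member with its SE, by role group and ordered by size. Filled points passed an adjusted p of 0.05 in edgeR: 4 of 22 glycolytic members, 2 of 7 HIF regulators and 4 of 12 other HIF targets, all to the right of 0.

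Of the 22 genes of glucose uptake, glycolysis and pyruvate fate, 4 rose, 0 fell and 18 did not pass. Calls over all genes tested were 1.44% higher and 1.23% lower. The log2 fold change was above 0 in 20 of them, with a median of 0.11 and a range of -0.15 to 0.65. The summed level was 13064, 13449 and 13379 TPM in MOZ KO replicates 1 to 3, against 13256, 12232, 12073, 10991 and 12095 TPM in MOZ WT replicates 1 to 5. The sum of MOZ WT replicate 1 lay among those of the MOZ KO hearts, and those of the other 4 MOZ WT hearts lay below them.

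Phosphofructokinase, which commits glucose to glycolysis, has 3 subunits: the liver type Pfkl, the muscle type Pfkm and the platelet type Pfkp. Pfkl (Entrez gene 18641, chromosome 10 from 77986947 to 78009807, mm10) had 495, 545 and 522 CPM in MOZ KO replicates 1 to 3, against 468, 443, 441, 426 and 459 CPM in MOZ WT replicates 1 to 5. The groups did not overlap, and Pfkl rose by 0.22 ± 0.05 on the log2 scale (SE; edgeR, adjusted p = 0.0105). Its call was lost without MOZ KO replicate 2 (edgeR, adjusted p = 0.0864). Pfkp (Entrez gene 56421, chromosome 13 from 6579874 to 6649060, mm10) had 269, 285 and 270 CPM in MOZ KO replicates 1 to 3, against 254, 232, 232, 207 and 240 CPM in MOZ WT replicates 1 to 5. All MOZ KO hearts were above all MOZ WT hearts, with MOZ WT replicate 1 closest, and Pfkp rose by 0.23 ± 0.05 on the log2 scale (SE; edgeR, adjusted p = 0.0176). That call was lost without MOZ KO replicate 1, 2 or 3 or MOZ WT replicate 3 (edgeR, adjusted p up to 0.112) and without the hearts with Xist RNA (0.0608). Exons of Pfkp share 748 bases with Pitrm1 on the opposite strand. Pfkm had 147, 142 and 151 CPM in MOZ KO replicates 1 to 3, against 139, 143, 139, 145 and 139 CPM in MOZ WT replicates 1 to 5, and the groups overlapped (log2 fold change 0.06 ± 0.04).

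Aldolase splits the phosphorylated hexose, and Aldoc is its brain-type form, here a minor one. Aldoc (Entrez gene 11676, chromosome 11 from 78323073 to 78327781, mm10) had 13.9, 11.1 and 11.1 CPM in MOZ KO replicates 1 to 3, against 7.82, 9.43, 6.90, 7.05 and 7.43 CPM in MOZ WT replicates 1 to 5. The highest MOZ WT heart, replicate 2, stayed below the lowest MOZ KO hearts, and Aldoc rose by 0.65 ± 0.13 on the log2 scale (SE; edgeR, adjusted p = 0.00639). The call was lost without MOZ KO replicate 1 (edgeR, adjusted p = 0.0956). Aldoa, the main form, had 1634, 1668 and 1740 CPM in MOZ KO replicates 1 to 3, against 1640, 1475, 1487, 1375 and 1501 CPM in MOZ WT replicates 1 to 5. MOZ WT replicate 1 lay within the MOZ KO range and the other MOZ WT hearts below it, and the log2 fold change of 0.17 ± 0.05 (edgeR, adjusted p = 0.104) did not pass.

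Pdk1 encodes a kinase that inactivates pyruvate dehydrogenase and so holds pyruvate back from the mitochondria. Pdk1 (Entrez gene 228026, chromosome 2 from 71873215 to 71903858, mm10) had 320, 346 and 333 CPM in MOZ KO replicates 1 to 3, against 297, 271, 267, 235 and 258 CPM in MOZ WT replicates 1 to 5. All MOZ KO hearts were above all MOZ WT hearts, and Pdk1 rose by 0.33 ± 0.06 on the log2 scale (SE; edgeR, adjusted p = 0.00303). It passed on leaving out any single heart (edgeR, adjusted p up to 0.0286) and without the hearts with Xist RNA (0.0136).

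Pkm, which makes pyruvate, had 1886, 1869 and 1824 CPM in MOZ KO replicates 1 to 3, against 1757, 1656, 1668, 1565 and 1681 CPM in MOZ WT replicates 1 to 5. The groups did not overlap, but the log2 fold change of 0.16 ± 0.05 (edgeR, adjusted p = 0.0798) did not pass. Lactate dehydrogenase is a tetramer of Ldha and Ldhb subunits. Ldha had 2303, 2389 and 2399 CPM in MOZ KO replicates 1 to 3, against 2371, 2026, 2095, 1836 and 1993 CPM in MOZ WT replicates 1 to 5. MOZ WT replicate 1 lay within the MOZ KO range and the other 4 MOZ WT hearts lay below it; the log2 fold change was 0.20 ± 0.06 (edgeR, adjusted p = 0.124). Ldhb had 200, 191 and 225 CPM in MOZ KO replicates 1 to 3, against 176, 204, 191, 189 and 189 CPM in MOZ WT replicates 1 to 5, with overlapping groups (log2 fold change 0.11 ± 0.06).

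The members of glucose entry did not pass. Slc2a1 had 951, 996 and 894 CPM in MOZ KO replicates 1 to 3, against 1026, 860, 966, 794 and 888 CPM in MOZ WT replicates 1 to 5, with MOZ WT replicate 1 the highest of all (log2 fold change 0.06 ± 0.07). Slc2a3, a transporter of high affinity, had 109, 124 and 107 CPM in MOZ KO replicates 1 to 3, against 119, 88.4, 96.1, 89.8 and 87.4 CPM in MOZ WT replicates 1 to 5. MOZ WT replicate 1 stood well above the other MOZ WT hearts and within the MOZ KO range, and the log2 fold change was 0.23 ± 0.11. Without MOZ WT replicate 1 it was 0.32 and passed (edgeR, adjusted p = 0.00264). Hexokinase traps glucose in the cell. Hk1 had 709, 701 and 659 CPM in MOZ KO replicates 1 to 3, against 734, 714, 715, 686 and 709 CPM in MOZ WT replicates 1 to 5, and Hk2 had 143, 152 and 118 CPM in MOZ KO replicates 1 to 3, against 137, 138, 130, 126 and 143 CPM in MOZ WT replicates 1 to 5. Both overlapped between groups, with log2 fold changes of -0.05 ± 0.04 and 0.03 ± 0.07.

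Pfkfb3 and Pfkfb4 make and break down the allosteric activator of phosphofructokinase. Pfkfb3 had 29.8, 30.1 and 34.6 CPM in MOZ KO replicates 1 to 3, against 31.9, 29.9, 27.6, 28.8 and 36.1 CPM in MOZ WT replicates 1 to 5. Pfkfb4 had 7.03, 9.86 and 9.09 CPM in MOZ KO replicates 1 to 3, against 5.65, 6.22, 8.41, 9.27 and 9.82 CPM in MOZ WT replicates 1 to 5. Both overlapped widely, with log2 fold changes of 0.03 ± 0.09 and 0.13 ± 0.18. The remaining glycolytic members also did not pass. Their log2 fold changes were 0.19 ± 0.05 (edgeR, adjusted p = 0.0689) for Tpi1, 0.11 ± 0.06 for Pgk1 (phosphoglycerate kinase, X-linked), and 0.10 ± 0.06 for Gapdh (glyceraldehyde phosphate dehydrogenase). They were 0.08 ± 0.04 for Gpi1 (glucose phosphate isomerase), 0.08 ± 0.07 for the lactate exporter Slc16a3, and 0.06 ± 0.05 for Pgam1 (phosphoglycerate mutase). Eno1 (enolase) had the lowest of the group, -0.15 ± 0.06 (edgeR, adjusted p = 0.206), and was the 1 member below 0 with an unadjusted p under 0.05 (0.0155).

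Several of these genes have near-identical copies in the genome, and the sources used here do not give how reads matching several places were counted. In the GENCODE M21 annotation, the longest coding transcript shared exact 50-base windows with transcripts of genes elsewhere over 82.5% of its length for Gapdh, 72.2% for Eno1, 68.0% for Pgk1, 48.9% for Bnip3 and 41.5% for Pgam1. The share was 30.5% for Pkm, 27.0% for Ldhb, 23.4% for Bnip3l, 19.6% for Gpi1, 16.6% for Ldha and 13.5% for Aldoa. Levels of these 11 members are therefore uncertain, and how far their fold changes are affected was not tested. Gapdh, with the largest share, was counted at 159 ± 10.6 TPM in MOZ KO and 150 ± 11.5 TPM in MOZ WT.

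**Figure D3:**
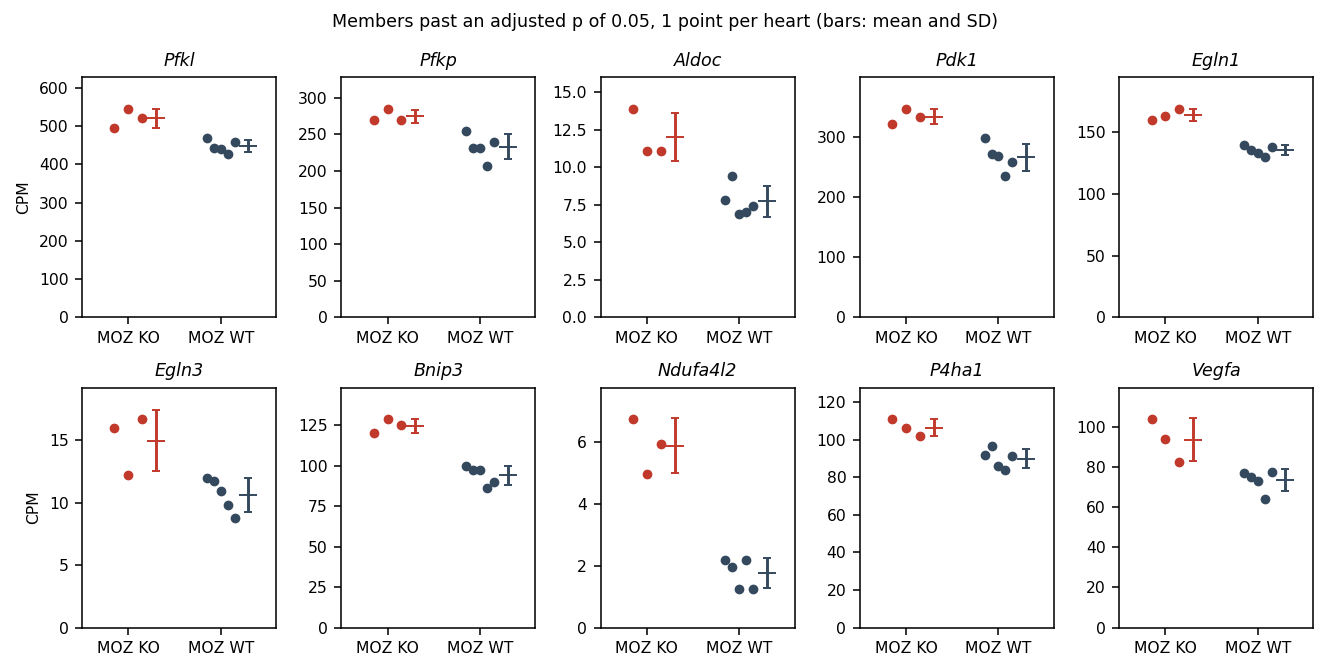
CPM of the 10 members that passed an adjusted p of 0.05, with 1 point per heart, MOZ KO (red) left of MOZ WT (dark), and the mean and SD beside the points; each vertical axis starts at 0. In none of the 10 panels do the points of the groups overlap, and the gap is narrowest relative to the level for Egln3, at 12.2 CPM in the lowest MOZ KO heart and 12 CPM in the highest MOZ WT heart.

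Of the 7 HIF regulators, 2 rose, 0 fell and 5 did not pass, with a median log2 fold change of -0.01. The median was 0.04 without MOZ KO replicate 1, so that it has no stable sign. Among all genes tested, 1.44% were called higher and 1.23% lower. The summed level was 538, 537 and 531 TPM in MOZ KO replicates 1 to 3, against 554, 564, 549, 504 and 506 TPM in MOZ WT replicates 1 to 5, and the groups overlapped. The 2 that rose are prolyl hydroxylase genes that are themselves known as HIF targets. Egln1 (Entrez gene 112405, chromosome 8 from 124908587 to 124949254, mm10) had 160, 163 and 169 CPM in MOZ KO replicates 1 to 3, against 140, 136, 133, 130 and 138 CPM in MOZ WT replicates 1 to 5. The groups did not overlap, and Egln1, the main oxygen sensor of the pathway, rose by 0.27 ± 0.04 on the log2 scale (SE; edgeR, adjusted p = 0.00117). It passed on leaving out any single heart (edgeR, adjusted p up to 0.0143). Egln3 (Entrez gene 112407, chromosome 12 from 54178981 to 54203874, mm10) had 16.0, 12.2 and 16.7 CPM in MOZ KO replicates 1 to 3, against 12, 11.7, 10.9, 9.79 and 8.73 CPM in MOZ WT replicates 1 to 5. MOZ KO replicate 2 lay just above MOZ WT replicate 1 and the other MOZ KO hearts well above, and Egln3 rose by 0.49 ± 0.12 on the log2 scale (SE; edgeR, adjusted p = 0.0339). That call was lost without MOZ KO replicate 1 or 3 or MOZ WT replicate 3, 4 or 5 (edgeR, adjusted p up to 0.202) and without the hearts with Xist RNA (0.175). Egln2, the third hydroxylase, had 62.4, 67.7 and 72.0 CPM in MOZ KO replicates 1 to 3, against 70.0, 66.2, 70.6, 66.3 and 65.9 CPM in MOZ WT replicates 1 to 5, and the log2 fold change was -0.01 ± 0.06.

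The alpha subunits did not pass. Hif1a had 504, 492 and 453 CPM in MOZ KO replicates 1 to 3, against 547, 567, 556, 480 and 467 CPM in MOZ WT replicates 1 to 5. MOZ KO replicates 1 and 2 lay within the MOZ WT range and replicate 3 below it. Within MOZ WT, replicates 4 and 5, the hearts with Xist RNA, were lowest, and the log2 fold change was -0.12 ± 0.06. Without those 2 hearts it was -0.20 and passed (edgeR, adjusted p = 0.0498). Epas1, the HIF-2 alpha subunit of endothelium among other cells, had 47.1, 48.4 and 41.2 CPM in MOZ KO replicates 1 to 3, against 35.1, 42.2, 39.2, 39.1 and 36.7 CPM in MOZ WT replicates 1 to 5. MOZ KO replicate 3 overlapped MOZ WT replicate 2, and the log2 fold change was 0.25 ± 0.07 (edgeR, adjusted p = 0.0783). Arnt and Vhl had log2 fold changes of -0.05 ± 0.05 and -0.02 ± 0.07.

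Of the 12 other HIF targets, 4 rose, 0 fell and 8 did not pass. The log2 fold change was above 0 in 11 of the 12, with a median of 0.24, and in 8 of them the groups did not overlap. Among all genes tested, 1.44% were called higher, and in 4.77% every MOZ KO value lay above every MOZ WT value. The summed level was 604, 630 and 622 TPM in MOZ KO replicates 1 to 3, against 524, 529, 504, 472 and 507 TPM in MOZ WT replicates 1 to 5. Every MOZ KO sum was above every MOZ WT sum.

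Ndufa4l2 (Entrez gene 407790, chromosome 10 from 127509274 to 127517154, mm10) had 6.76, 4.98 and 5.94 CPM in MOZ KO replicates 1 to 3, against 2.20, 1.96, 1.25, 2.18 and 1.25 CPM in MOZ WT replicates 1 to 5. Ndufa4l2 encodes a mitochondrial protein that is known to lower complex I activity in hypoxia. Its lowest MOZ KO heart was well above its highest MOZ WT heart, and it rose by 1.75 ± 0.22 on the log2 scale (SE; edgeR, adjusted p = 8.25e-05), or 3.36-fold. It is a low-abundance gene here, with 98 to 202 counts per MOZ KO heart and 31 to 65 counts per MOZ WT heart. It passed on leaving out any single heart (edgeR, adjusted p up to 0.00294). Its exons share 32 bases with Shmt2 on the opposite strand, and the sources used here do not say whether strand was used in counting.

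Bnip3 (Entrez gene 12176, chromosome 7 from 138890836 to 138909506, mm10) had 120, 129 and 125 CPM in MOZ KO replicates 1 to 3, against 99.6, 97.1, 97.6, 86.2 and 89.8 CPM in MOZ WT replicates 1 to 5. The groups did not overlap, and Bnip3 rose by 0.41 ± 0.05 on the log2 scale (SE; edgeR, adjusted p = 0.000147). It passed on leaving out any single heart (edgeR, adjusted p up to 0.00246), with the limits that copies elsewhere share 48.9% of its windows and that 504 bases of its exons (22.3%) lie opposite Gm45507. Bnip3l, its relative in mitophagy, had 93.0, 105 and 101 CPM in MOZ KO replicates 1 to 3, against 93.6, 92.7, 92.8, 86.3 and 79.8 CPM in MOZ WT replicates 1 to 5. MOZ KO replicate 1 lay within the MOZ WT range, and the log2 fold change was 0.16 ± 0.06.

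Vegfa (Entrez gene 22339, chromosome 17 from 46016993 to 46032377, mm10) had 104, 94.1 and 82.6 CPM in MOZ KO replicates 1 to 3, against 77.2, 75.2, 73.2, 64.2 and 77.6 CPM in MOZ WT replicates 1 to 5. Vegfa encodes the growth factor of blood vessel formation, which in the heart is also needed for endocardial cushions. All MOZ KO hearts were above all MOZ WT hearts, and Vegfa rose by 0.35 ± 0.07 on the log2 scale (SE; edgeR, adjusted p = 0.0127). The call was lost without MOZ KO replicate 1 or 2 (edgeR, adjusted p up to 0.113).

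P4ha1 and P4ha2 encode the catalytic subunits of collagen prolyl 4-hydroxylase. P4ha1 (Entrez gene 18451, chromosome 10 from 59323197 to 59373304, mm10) had 111, 106 and 102 CPM in MOZ KO replicates 1 to 3, against 91.6, 96.7, 86.0, 83.9 and 91.3 CPM in MOZ WT replicates 1 to 5. The groups did not overlap, and P4ha1 rose by 0.24 ± 0.05 on the log2 scale (SE; edgeR, adjusted p = 0.0125). The call was lost without MOZ KO replicate 1 or 2 (edgeR, adjusted p up to 0.134) and without the hearts with Xist RNA (0.0621). P4ha2 had 46.9, 47.6 and 48.9 CPM in MOZ KO replicates 1 to 3, against 45.6, 42.9, 39.4, 35.7 and 38.2 CPM in MOZ WT replicates 1 to 5. Its groups did not overlap either, but the log2 fold change of 0.24 ± 0.07 (edgeR, adjusted p = 0.0877) did not pass.

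In 3 further targets all MOZ KO hearts were above all MOZ WT hearts without passing. Higd1a, a protein of the mitochondrial inner membrane, had 42.1, 47.0 and 45.7 CPM in MOZ KO replicates 1 to 3, against 40.8, 40.2, 40.4, 31.5 and 37.7 CPM in MOZ WT replicates 1 to 5, with a log2 fold change of 0.23 ± 0.08 (edgeR, adjusted p = 0.141). Ddit4, an inhibitor of mTORC1 signalling, had 33.4, 37.9 and 42.1 CPM in MOZ KO replicates 1 to 3, against 29.4, 32.8, 30.8, 32.4 and 31.1 CPM in MOZ WT replicates 1 to 5, with a log2 fold change of 0.27 ± 0.08 (edgeR, adjusted p = 0.0655). Mxi1, a transcriptional repressor that opposes Myc, had 53.7, 49.5 and 58.4 CPM in MOZ KO replicates 1 to 3, against 40.7, 46.0, 45.9, 48.9 and 47.4 CPM in MOZ WT replicates 1 to 5, with a log2 fold change of 0.24 ± 0.07 (edgeR, adjusted p = 0.0764). MOZ KO replicate 2 was the closest to MOZ WT for Mxi1, and MOZ KO replicate 1 for Higd1a and Ddit4. In Ankrd37, Kdm3a (a histone H3 lysine 9 demethylase) and Car9 the groups overlapped, with log2 fold changes of 0.47 ± 0.19, 0.02 ± 0.09 and -0.02 ± 0.23. Opposite-strand exons cover 349 bases of Ankrd37 (22.7%, Lrp2bp) and 683 bases of Higd1a (22.5%, Gm47112).

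**Figure D4:**
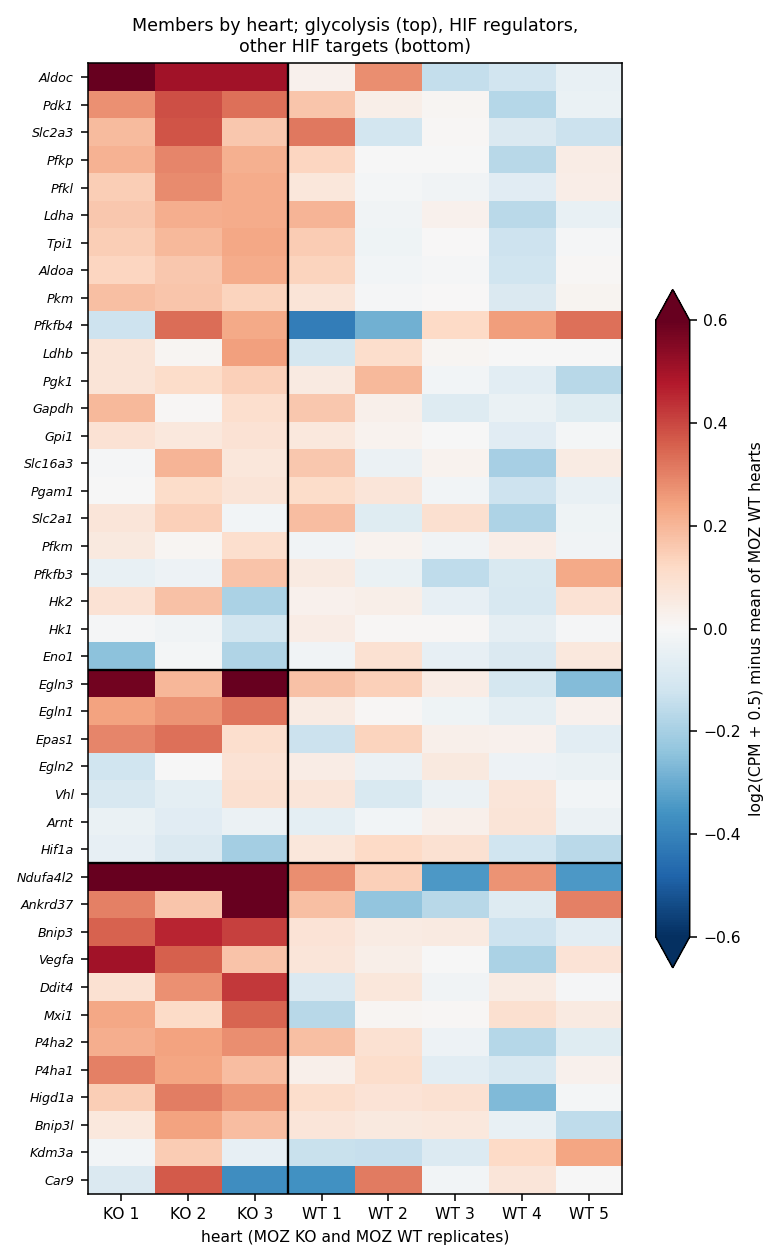
Log2(CPM + 0.5) of each member in each heart minus the mean of the 5 MOZ WT hearts, with MOZ KO replicates left of MOZ WT replicates; colours are capped at 0.6 in either direction. Red runs through the MOZ KO columns of most rows, MOZ WT replicate 1 is above that mean in 18 of the 22 glycolytic rows, and MOZ WT replicate 4 in 2.

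The MOZ WT hearts differed among themselves. MOZ WT replicate 1 had the highest MOZ WT value in 14 of the 22 glycolytic members, and MOZ WT replicate 4 had the lowest in 14 of 22. Median log2 deviations from the MOZ WT mean over those members were 0.09, 0.16 and 0.15 in MOZ KO replicates 1 to 3, against 0.07, 0.00, 0.00, -0.09 and -0.01 in MOZ WT replicates 1 to 5. Over the other HIF targets they were 0.22, 0.26 and 0.27 in MOZ KO replicates 1 to 3, against 0.07, 0.06, -0.02, -0.06 and -0.01 in MOZ WT replicates 1 to 5. Without MOZ WT replicate 1, 9 glycolytic members rose rather than 4. Tpi1 (0.00701), Aldoa (0.0167), Pkm (0.0294), Ldha (0.00511) and Slc2a3 were added, and P4ha2 (0.0225) among the other targets (edgeR adjusted p in parentheses).

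The share of each isoform in its family was set beside the levels, since an enzyme's properties differ between isoforms. Shares are percentages of the summed TPM of the family, and 14 of them were compared by a two-sided exact permutation test over hearts, for which 56 arrangements make 0.0179 the smallest p. After Benjamini-Hochberg adjustment over the 14, 0 passed 0.05, while 5 had an unadjusted p under 0.05. In 4 shares the groups did not overlap, each with exact permutation p = 0.0179 and adjusted p = 0.0625. With 14 shares tested, complete separation in these 4 was still not enough to pass. The 0 therefore does not show that the shares were alike. Egln2 took 36.5, 38.8 and 38.7% in MOZ KO replicates 1 to 3, against 43.0, 42.1, 44.4, 43.7 and 42.4% in MOZ WT replicates 1 to 5, of the hydroxylase RNA, a difference of -5.11 percentage points (MOZ KO minus MOZ WT). Egln1 took 56.1, 55.7 and 54.2% in MOZ KO replicates 1 to 3, against 51.2, 52.0, 50.2, 51.2 and 53.2% in MOZ WT replicates 1 to 5, a difference of 3.78 points. The hydroxylase shares add up to the whole, so those of Egln1 and Egln2 are not separate results. Egln2 itself had a log2 fold change of -0.01 ± 0.06 (SE). Bnip3 took 70.4, 69.4 and 69.5% in MOZ KO replicates 1 to 3, against 66.2, 65.9, 66.0, 64.8 and 67.5% in MOZ WT replicates 1 to 5, of the sum with Bnip3l, a difference of 3.66 points. Epas1 took 7.67, 8.05 and 7.50% in MOZ KO replicates 1 to 3, against 5.40, 6.21, 5.90, 6.75 and 6.53% in MOZ WT replicates 1 to 5, of the sum with Hif1a, a difference of 1.58 points.

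In the other 10 shares the groups overlapped. Ldha took 88.5 ± 0.805% in MOZ KO and 87.8 ± 1.34% in MOZ WT of lactate dehydrogenase RNA (SD, n = 3 and n = 5; exact permutation p = 0.464, adjusted p = 0.542). Pfkl took 54.5 ± 1.00% in MOZ KO and 53.5 ± 0.259% in MOZ WT, Pfkp 26.8 ± 0.484% in MOZ KO and 26.0 ± 1.04% in MOZ WT, and Pfkm 18.8 ± 1.01% in MOZ KO and 20.6 ± 1.10% in MOZ WT of phosphofructokinase RNA. Hk2 took 14.0 ± 1.18% in MOZ KO and 13.4 ± 0.501% in MOZ WT beside Hk1. Pfkfb3 took 69.9 ± 3.54% in MOZ KO and 71.5 ± 5.07% in MOZ WT beside Pfkfb4, and P4ha1 took 56.3 ± 1.45% in MOZ KO and 56.4 ± 1.70% in MOZ WT beside P4ha2. Slc2a3 took 7.21 ± 0.300% in MOZ KO and 6.44 ± 0.466% in MOZ WT beside Slc2a1. Egln3 took 6.65 ± 1.01% in MOZ KO and 5.32 ± 0.602% in MOZ WT of hydroxylase RNA. Aldoc took 0.764 ± 0.123% in MOZ KO and 0.552 ± 0.0748% in MOZ WT of aldolase RNA (exact permutation p = 0.0357, adjusted p = 0.100), with MOZ WT replicate 2, at 0.681%, just above the lowest MOZ KO heart, at 0.680%.

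**Figure D5:**
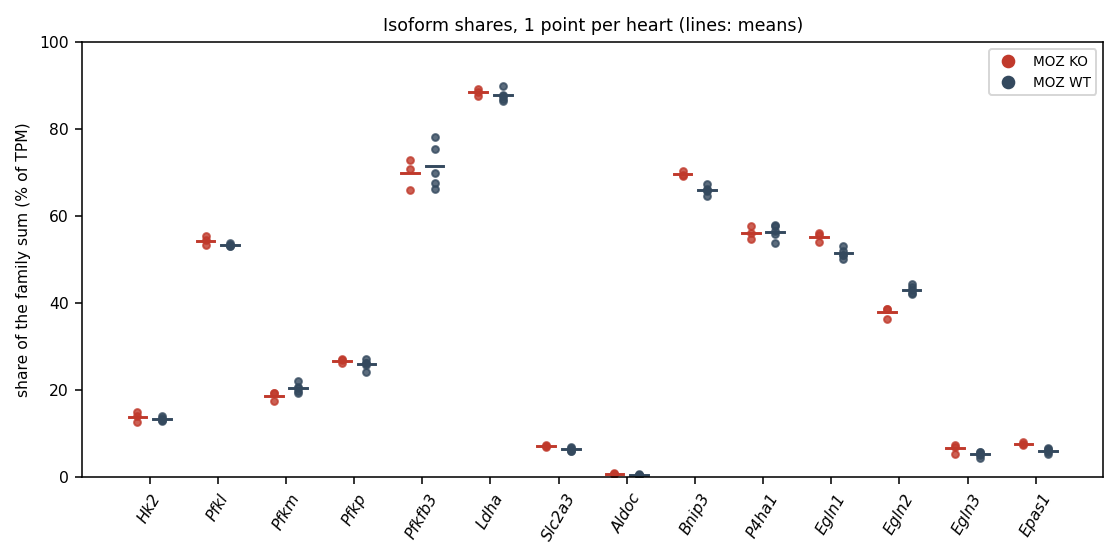
Share of each isoform in the summed TPM of its family, in percent, with 1 point per heart, MOZ KO (red) left of MOZ WT (dark), and lines at the means. The points separate in Bnip3, Egln1, Egln2 and Epas1, and Egln2 is the one of them whose share is lower in MOZ KO, at 38.0% in MOZ KO and 43.1% in MOZ WT on average. The shares of Egln1, Egln2 and Egln3 add up to the whole and so are not separate results.

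HIF is known to bind the cores ACGTG and GCGTG. Both were searched on both strands, where a CACGTG palindrome counts as 2 cores. RefSeq promoters (GRCm38.p6, the assembly of mm10), from 250 bases before to 50 bases after a start, were matched for 37 of the 41 members, with 56 starts. Promoters of Bnip3l, Slc2a3, Epas1 and Ndufa4l2 were not analysed here. A core was found in 44 of the 56 promoters (78.6%), against 43.8% of all 32851 promoters of the same length and 60.3% of the 14562 promoters of genes tested. At least 2 cores were found in 51.8% of the members' promoters, against 20.6% of all and 32.3% of those of genes tested. The members include many genes known as HIF targets, so the share describes them and does not test the comparison between hearts. Among the members that rose, Bnip3, P4ha1, Pfkp and Egln1 had at least 2 cores in the 250 bases before their furthest upstream start. Pfkl, Aldoc, Pdk1 and Egln3 had 1 each there, and Vegfa had 0. Whether cores go with a rise was not tested. The stretch is shown, 5′ to 3′ on the gene's strand, for Bnip3 and Egln1, members that passed on leaving out any single heart and whose start is also the outer end of the gene in the count table. It lies at chr7:138909507-138909756 on the minus strand for Bnip3 and at chr8:124949255-124949504 on the minus strand for Egln1. Capitals mark the cores, on either strand.
Bnip3: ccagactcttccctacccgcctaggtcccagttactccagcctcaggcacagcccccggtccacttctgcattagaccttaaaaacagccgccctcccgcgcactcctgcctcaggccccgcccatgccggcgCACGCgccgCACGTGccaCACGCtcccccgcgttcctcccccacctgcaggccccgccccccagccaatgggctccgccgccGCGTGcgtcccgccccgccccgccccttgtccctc
Egln1: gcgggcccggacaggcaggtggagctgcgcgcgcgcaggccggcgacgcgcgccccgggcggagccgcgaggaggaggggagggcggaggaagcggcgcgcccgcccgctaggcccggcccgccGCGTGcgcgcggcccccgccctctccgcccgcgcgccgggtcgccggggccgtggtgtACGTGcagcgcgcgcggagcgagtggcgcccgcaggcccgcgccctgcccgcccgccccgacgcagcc

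Bnip3 had 5 cores in this stretch, 2 of them within a CACGTG, and Egln1 had 2. P4ha1 and Pfkp had 3 each. Cores also lay before members that did not pass: the stretch before Ldha had up to 5, and the stretch before Ankrd37 had 4. A core is a match of letters and not a measured binding site.

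Other genes of the same pathways were read from lists, beside the 1.44% of all genes tested called higher and the 1.23% called lower. Of 30 tested of 34 further genes of glycolysis and pyruvate, 3 rose, 1 fell and 26 did not pass, with a median log2 fold change of 0.04. Eno3, the muscle enolase, averaged 271 ± 7.06 CPM in MOZ KO and 233 ± 17.3 CPM in MOZ WT (SD, n = 3 and n = 5), and rose by 0.22 ± 0.05 on the log2 scale (SE; edgeR, adjusted p = 0.0304). Pdk4, another kinase of pyruvate dehydrogenase, averaged 33.9 ± 4.94 CPM in MOZ KO and 27.3 ± 0.936 CPM in MOZ WT and rose by 0.32 ± 0.08 on the log2 scale (SE; edgeR, adjusted p = 0.0428). Eno2, the neuronal enolase, averaged 6.75 ± 2.04 CPM in MOZ KO and 3.97 ± 0.912 CPM in MOZ WT, with overlapping groups, and rose by 0.78 ± 0.20 on the log2 scale (SE; edgeR, adjusted p = 0.0485). The calls of Eno3, Pdk4 and Eno2 were each lost on leaving out any of 5 or 6 single hearts, MOZ KO replicate 3 and MOZ WT replicate 3 among them for all 3 (edgeR, adjusted p up to 0.144, 0.327 and 0.343). They were also lost without the hearts with Xist RNA (0.107, 0.120 and 0.0508). Hkdc1, a hexokinase-like gene, had 1.81, 0.966 and 1.44 CPM in MOZ KO replicates 1 to 3, against 5.45, 3.16, 2.87, 3.31 and 4.57 CPM in MOZ WT replicates 1 to 5, and fell by 1.44 ± 0.27 on the log2 scale (SE; edgeR, adjusted p = 0.00340). It passed on leaving out any single heart (edgeR, adjusted p up to 0.0272).

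Of 7 genes of pyruvate dehydrogenase and mitochondrial pyruvate entry and of 7 genes of the pentose phosphate pathway, 0 rose and 0 fell, with medians of 0.00 in both; none of these genes had an unadjusted p under 0.05, and 0 passed with DESeq2. Pdha1, the E1 alpha subunit of pyruvate dehydrogenase, averaged 362 ± 15.7 CPM in MOZ KO and 345 ± 14.7 CPM in MOZ WT, and transketolase, Tkt, averaged 155 ± 13.7 CPM in MOZ KO and 167 ± 9.44 CPM in MOZ WT. Of 15 other factors of the HIF pathway, 0 rose and 0 fell with edgeR or DESeq2, with a median of 0.07, and 4 had an unadjusted p under 0.05. Rbx1, the RING subunit of the ubiquitin ligase that holds Vhl, averaged 51.9 ± 2.00 CPM in MOZ KO and 46.0 ± 2.95 CPM in MOZ WT, a log2 fold change of 0.17 ± 0.06. Cited2, which competes with HIF for the coactivators Ep300 and Crebbp, averaged 100 ± 4.59 CPM in MOZ KO and 90.2 ± 6.37 CPM in MOZ WT, a log2 fold change of 0.15 ± 0.06.

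Of 35 other HIF targets outside the 41 members, 3 rose, 0 fell and 32 did not pass. The log2 fold change was above 0 in 28 of them and below 0 in 7, with a median of 0.10 and a range of -0.88 to 0.99. In 6 of them every MOZ KO value lay above every MOZ WT value, and in 2 every one lay below. Over all genes tested, 4.77% lay above and 4.81% below in this way. Fam162a, a mitochondrial protein linked to cell death in hypoxia, had 137, 128 and 139 CPM in MOZ KO replicates 1 to 3, against 113, 106, 109, 98.0 and 103 CPM in MOZ WT replicates 1 to 5. It rose by 0.34 ± 0.05 on the log2 scale (SE; edgeR, adjusted p = 0.000583). Vldlr, the very low density lipoprotein receptor, had 60.9, 55.4 and 59.0 CPM in MOZ KO replicates 1 to 3, against 34.1, 46.5, 34.8, 31.9 and 35.5 CPM in MOZ WT replicates 1 to 5, with MOZ WT replicate 2 the highest of its group. It rose by 0.68 ± 0.10 on the log2 scale (SE; edgeR, adjusted p = 0.00174). Cox4i2, an oxygen-regulated isoform of a cytochrome c oxidase subunit, had 8.03, 8.03 and 8.19 CPM in MOZ KO replicates 1 to 3, against 4.94, 4.45, 4.47, 3.78 and 2.63 CPM in MOZ WT replicates 1 to 5, with the MOZ KO hearts close together. It rose by 0.99 ± 0.17 on the log2 scale (SE; edgeR, adjusted p = 0.00178). In all 3 the groups did not overlap, and all 3 passed on leaving out any single heart (edgeR, adjusted p up to 0.0106, 0.0234 and 0.0164).

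Markers of cell types and of tissue handling were read beside these results. The share of all genes tested was 1.44% for calls higher and 1.23% for calls lower. Of 13 cardiomyocyte markers, 3 rose (Tnni3, Myl3 and Ryr2) and 0 fell, with a median log2 fold change of 0.13, and their summed level was 64554 to 69601 TPM in MOZ KO and 57402 to 65448 TPM in MOZ WT. The count of 3 was 0 without MOZ KO replicate 1, 1 without MOZ WT replicate 3 and 1, Ryr2, without the hearts with Xist RNA, where Tnni3 had an adjusted p of 0.192 and Myl3 of 0.0653 (edgeR). It was 2 to 3 without each of the other hearts and 5 with DESeq2. Of 12 macrophage and leukocyte markers, 7 rose and 0 fell, with a median of 1.24 and sums of 50.7 to 63.3 TPM in MOZ KO and 17.5 to 33.7 TPM in MOZ WT. Without MOZ KO replicate 3 the count was 4. Of 10 epicardial markers, 1 rose and 6 fell, with sums of 383 to 438 TPM in MOZ KO and 491 to 570 TPM in MOZ WT. Of 10 markers of endothelium and endocardium, 2 rose (Pecam1 and Tie1) and 1 fell (Npr3), with sums of 788 to 814 TPM in MOZ KO and 730 to 793 TPM in MOZ WT. The count of 2 was 0 without any one of the MOZ KO hearts, without MOZ WT replicate 3 and without the hearts with Xist RNA, where Pecam1 had an adjusted p of 0.0830 and Tie1 of 0.0990 (edgeR). It was 1 without MOZ WT replicate 1, 4 or 5, while Npr3 passed in each of these fits. Of 8 cushion markers, 0 rose and 3 fell, with sums of 769 to 814 TPM in MOZ KO and 831 to 944 TPM in MOZ WT. Of 15 genes that respond to the handling of tissue (immediate early and heat shock), 0 rose and 0 fell with edgeR or DESeq2, and 3 had an unadjusted p under 0.05, but the median was 0.28, above that of the members, with sums of 1046 to 1239 TPM in MOZ KO and 1007 to 1108 TPM in MOZ WT. Their part in the rise of the 10 members was not tested.

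Other sources of RNA were read in the same way. Of 8 markers of pharyngeal and second heart field tissue, 7 were tested, 1 rose and 2 fell, with sums of 27.1 to 31.4 TPM in MOZ KO and 34.3 to 52.1 TPM in MOZ WT. Of 6 liver markers 2 were tested and 0 passed with edgeR or DESeq2, 1 of them with an unadjusted p under 0.05, with sums of 1.52 to 18.7 TPM in MOZ KO and 0.614 to 2.65 TPM in MOZ WT. Of 10 proliferation genes, 0 passed with edgeR and 1 was lower with DESeq2, and 2 had an unadjusted p under 0.05, with sums of 1471 to 1599 TPM in MOZ KO and 1508 to 1648 TPM in MOZ WT. Their log2 fold change was below 0 in 9 of the 10, with a median of -0.06. No list had a marker at 0 in every heart. Of 10 red blood cell markers, 0 passed with edgeR or DESeq2 and 0 had an unadjusted p under 0.05, with sums of 19375 to 32944 TPM in MOZ KO and 14017 to 56632 TPM in MOZ WT. All 10 had a log2 fold change below 0, with a median of -0.25. MOZ WT replicate 4 had the most red cell RNA and the lowest glycolytic sum, and MOZ WT replicate 1 had the least and the highest glycolytic sum of its group. The other MOZ WT hearts lay between these in the same inverse order. Red cell sums were 14227, 33267 and 31066 TPM in MOZ WT replicates 2, 3 and 5. Their glycolytic sums were 12232, 12073 and 12095 TPM. Among the MOZ KO hearts the 2 sums rose together. Red cell sums were 19375, 32944 and 24583 TPM in MOZ KO replicates 1 to 3, with glycolytic sums of 13064, 13449 and 13379 TPM. The part of red cell RNA in the glycolytic sums was not tested. With the mean log2 CPM of these markers as a covariate, 16 members rose rather than 10, 7 of them glycolytic and 7 of them other HIF targets, and 0 fell.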

How the data were processed

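Total RNA of 8 E10.5 mouse hearts was sequenced after stranded TruSeq library preparation, per the labels' protocols. The authors deposited a table of read counts, whole numbers for each Entrez gene, with a gene length in bases, mapped to mm10 and counted with featureCounts after bcl2fastq, per the submitters' processing notes. The sources used here do not give the aligner, the strand setting or the handling of multi-mapped reads. The deposited table of all hearts and the 8 deposited single-heart files held identical counts. All 41 member symbols matched an Entrez gene. The members, the lists beside them and the tests were chosen with earlier results of these data known.

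Counts were analysed in R 4.3.3 with edgeR 4.0.16. Genes were filtered by filterByExpr (15086 kept), scaled by trimmed mean of M values (factors 0.988 to 1.007), and tested by the robust quasi-likelihood test of MOZ KO over MOZ WT in 8 hearts without covariates, with Benjamini-Hochberg adjustment over all genes and a threshold of 0.05. The erythroid covariate is the mean log2 CPM (prior count of 2) of the red blood cell markers. Each standard error (SE) was derived from the test's F statistic. The biological coefficient of variation was 9.10%, so that the spread between hearts, not depth, limits most values. CPM use scaled library sizes, and TPM use the deposited gene lengths. Isoform shares were tested by an exact permutation test in Python 3.11.15 with Benjamini-Hochberg adjustment. Alternatives were DESeq2 1.42.0, other scalings and filters, no robust moderation, a replicate block, an erythroid covariate, and leaving out hearts. Values per heart are given for every member that passed, whose groups do not overlap, or that belongs to an isoform family; other members are given by level or log2 fold change. From the other pathway lists, up to 4 genes of smallest p are named, or up to 2 where none passed. Marker lists are given by counts and summed levels; the few markers named were chosen after their values were seen.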

Additional observations from a re-analysis of the deposited data

Results flagged for a closer look

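Of 55 values examined for a heart far from the others of its group (CPM of the members and isoform shares in the 5 MOZ WT hearts), 2 stood apart, where chance gives about 1 in 20. Slc2a3, a glucose transporter, had 119 CPM in MOZ WT replicate 1 and 87.4 to 96.1 CPM in the other MOZ WT hearts. The share of Aldoc in aldolase RNA was 0.681% in MOZ WT replicate 2 and 0.495 to 0.546% in the other MOZ WT hearts.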

How the results depend on the processing

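Of all genes, 403 passed in the edgeR quasi-likelihood test, 580 with DESeq2, and 194 to 496 on leaving out each heart in turn. The number of members that passed, 10, was 14 with DESeq2, 16 with the erythroid covariate and 6 to 16 on leaving out a heart. It stayed between 9 and 12 under the other scalings and filters and without robust moderation. Glycolytic members that rose, 4, were 7 with DESeq2, 7 with the erythroid covariate and 2 to 9 on leaving out a heart. The HIF regulators that rose, 2, were 1 without robust moderation, 1 without the hearts with Xist RNA and 1 to 3 on leaving out a heart. The other HIF targets that rose, 4, were 7 with the erythroid covariate and 2 to 5 on leaving out a heart. Members that fell, 0, were 1 (Hif1a) without the hearts with Xist RNA. The cause of these differences was not tested. The median log2 fold change of the HIF regulators, -0.01, ranged from -0.058 to 0.042 on leaving out a heart, and changed sign without MOZ KO replicate 1 (0.042) or MOZ WT replicate 3 (0.004). The medians of the glycolytic members (0.097 to 0.133 on leaving out a heart) and of the other HIF targets (0.218 to 0.268) kept their sign under every alternative run. Isoform shares past the threshold stayed at 0 for shares of CPM, where the 56 arrangements set the same limit as in the main test. With hearts left out, 20 to 35 arrangements remain, which is fewer still. Neither 0 bears on the shares. Same-numbered hearts deviated from their group means with correlations of 0.066, -0.119 and -0.054, so the numbers were not taken as pairs, and MOZ KO replicate 1 correlated best with MOZ WT replicate 2 (0.075). With a replicate block on those numbers, 181 genes and 4 members passed (Egln1, Bnip3, Ndufa4l2 and Vegfa), with 0 glycolytic members and 1 HIF regulator. MOZ WT replicates 4 and 5 have no MOZ KO heart of the same number, so they do not inform that comparison. The lower counts cannot be told apart from this loss of hearts. Depth limits most the members with the fewest counts, Ndufa4l2, Car9, Ankrd37, Pfkfb4 and Aldoc.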
